A study of Mus musculus with 2 samples.

Results

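The interferon response genes described here are 9 listed genes, Stat2, Irf7, Ifit1, Ifit3, Isg15, Usp18, Ifi27, Bst2 and Ifitm3, out of 31053 genes in the files. They were taken by name from a list drawn up with earlier results of these data known, and all 9 were found. They were measured by droplet scRNA-seq in the oligodendrocyte lineage of the mouse optic nerve, in which oligodendrocyte precursor cells (OPCs) give rise to newly formed oligodendrocytes (NFOs) and then to mature oligodendrocytes. The study asked how this lineage differs between the uninjured nerve and the site of an optic nerve crush (ONC). Each condition was 1 library from 5 pooled nerves of Wildtype 129S1/SvlmJ mice, male and female together. The methods give mice of 10 weeks, with ONC at 8 weeks in the injured group, whereas the labels of both samples carry P56 (an age of 56 days) and a treatment of 2 weeks post-crush. The uninjured library was therefore assigned by its title.

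Interferons are secreted cytokines that bind receptors on the cell surface and activate the kinases Jak1 and Tyk2. In the type I pathway these phosphorylate Stat2, which acts with Irf9 on the interferon-stimulated response element (ISRE) in the promoters of many genes. Among the products of those genes are antiviral proteins such as the Ifit proteins, Bst2 and Ifitm3, and proteins that amplify or limit the response, such as Irf7 and Usp18. In white matter, oligodendrocytes with raised interferon response genes have been described in injury and disease.

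The barcodes had been typed by the authors. The uninjured library held 58 OPC, 44 NFO and 857 oligodendrocyte barcodes with 4414834 unique molecular identifiers (UMIs), and the injured library 17, 100 and 293 barcodes with 2771797 UMIs. No barcode sequence was found in both libraries (0 shared). The lists of OPC and of oligodendrocyte markers were highest in the type they name in both libraries, as was the NFO list. Depth differed between the libraries, with a median of 3060 UMIs per uninjured and 1268 per injured oligodendrocyte, and 84 deep barcodes (8000 UMIs or more) gave 86.9% of the UMIs of injured oligodendrocytes, against 203 barcodes and 58.7% without injury. Malat1, a nuclear RNA, was under 0.5% of UMIs in 45.4% of injured and 5.6% of uninjured oligodendrocytes. A list of 15 immune cell markers summed to 30.6 CPM (UMIs of a gene or list per 1000000 UMIs of its class) in uninjured and 359 CPM in injured oligodendrocytes, and to 21.2 and 855 CPM in NFOs. Levels below are CPM of the UMIs summed over a class of barcodes (1 type in 1 library), with exact Poisson 95% intervals. Ratios are injured over uninjured, with exact conditional 95% intervals. With 1 library per condition there is no replicate check, and the intervals cover counting error only.

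The ISRE is shown first, because it is the sequence through which Stat2 acts on such genes. A promoter from RefSeq (GRCm38.p6, 300 bases around the start, mostly before it) was found for 7 of the 9 genes, and none for Ifi27 and Usp18. The letters GAAANNGAAA, searched on both strands with overlapping matches allowed, were found in 6 of these 7 promoters (all but that of Irf7) and in 3.44% of all 32851 promoters. With a spacer of 3 bases (GAAANNNGAAA), 1 of the 7 promoters, that of Ifit3, and 2.75% of all promoters held a match. The interferon-gamma activated site, TTCNNNGAA, was found in the promoters of Bst2 and Ifitm3 and in 8.3% of all promoters. A match is a description of the letters and not a bound site, and Irf7 is only without these letters in this window. The windows below hold every GAAANNGAAA match of their promoter in capitals with 20 bases on either side, read 5′ to 3′ along the gene, so that TTTC stands where the match is on the opposite strand. The Ifitm3 matches lie after the start and are not shown. In Isg15 (chr4:156200855-156200916, minus strand) and Bst2 (chr8:71537567-71537622, minus strand) the matches overlap, while Ifit1 (chr19:34640765-34640833, plus strand) and Ifit3 (chr19:34583353-34583436, plus strand) have 2 separate ones and Stat2 (chr10:128270256-128270305, plus strand) has 1.
Isg15: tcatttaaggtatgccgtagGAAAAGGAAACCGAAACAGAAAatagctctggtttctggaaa
Bst2: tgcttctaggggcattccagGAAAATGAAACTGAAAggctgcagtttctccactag
Ifit1: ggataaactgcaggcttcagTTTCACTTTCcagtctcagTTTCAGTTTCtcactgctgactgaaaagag
Ifit3: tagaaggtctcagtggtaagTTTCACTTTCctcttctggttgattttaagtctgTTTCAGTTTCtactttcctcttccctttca
Stat2: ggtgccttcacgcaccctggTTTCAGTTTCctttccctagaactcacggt
The 3 matches in Isg15 begin 78, 72 and 66 bases before the start, and those in Bst2 130 and 124 bases before it. The matches in Ifit1 begin 104 and 85 bases, those in Ifit3 156 and 122 bases, and that in Stat2 222 bases before the start. These genes share the element, but their UMIs ranged from 5 for Isg15 (4 uninjured, 1 injured) to 253 for Stat2 (165 uninjured, 88 injured), as described next.

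In these cells the 9 genes were sparse. They held 2312 UMIs in all, of which Ifi27 gave 1960 (84.8%) and Stat2 253 (10.9%), so that the other 7 genes together gave 99. The summed level of the 9 genes was 374 CPM in uninjured and 230 CPM in injured OPCs, 584 and 347 CPM in NFOs, and 322 and 308 CPM in oligodendrocytes. In each of the 3 types the injured value was the lower one, in a sum that is mostly Ifi27. The other 7 genes held 5 uninjured and 2 injured UMIs in OPCs, and 3 of 94130 and 4 of 351851 in NFOs. In oligodendrocytes they held 37 of 4149375 uninjured and 48 of 2302349 injured UMIs, so their level there was higher after ONC. Of those 48 UMIs, 10 were Bst2 UMIs of 1 barcode. Only 9 barcodes held 2 or more of the other 7 genes (6 uninjured and 3 injured), and none held more than 3 of them. The ratio of a gene was called when it was at least 2 or at most 0.5 with an interval that excluded 1, among genes with at least 20 UMIs over both libraries. Of the 9 genes, 1 reached this minimum in NFOs (Ifi27) and 3 in oligodendrocytes (Stat2, Ifi27 and Bst2). In NFOs 0 of 1 was called higher and 0 of 1 lower, beside 7.83% and 5.03% of the 4038 genes compared. In oligodendrocytes 1 of 3, Bst2, was called higher and 0 of 3 lower, beside 7.33% and 4.83% of the 10123 genes compared. The median ratio over all genes compared was 1.1 in NFOs, a log2 shift of 0.13, and 1.03 in oligodendrocytes. OPCs were not called, since the injured library held 17 of them.

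**Figure D1:**
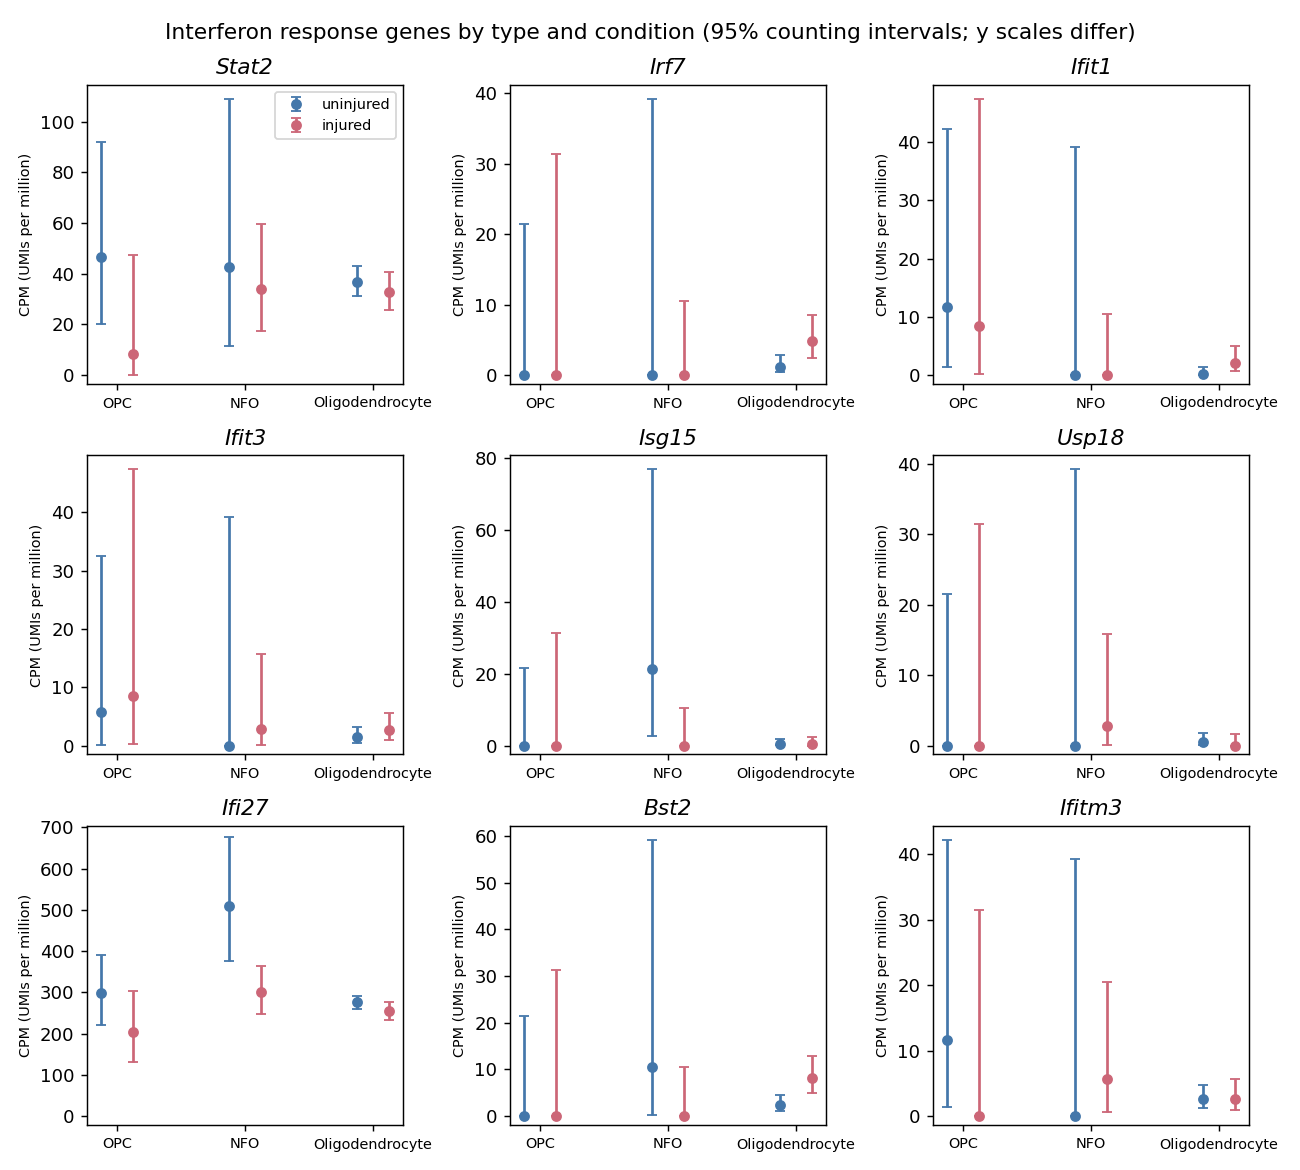
Level of each of the 9 genes (CPM, linear axes that differ between panels) by type, in the uninjured (blue) and injured (red) library. Points are CPM of summed UMIs and bars exact 95% Poisson intervals. Ifi27 and Stat2 have UMIs in all 6 classes, while the others have intervals that reach 0 or nearly so in most classes.

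Stat2 (ENSMUSG00000040033, chr10:128270559-128292849, plus strand) encodes the STAT protein of the type I and type III interferon response. It had 8 UMIs in uninjured OPCs (46.7 CPM, 20.2 to 92) and 1 in injured OPCs (8.5 CPM, 0.215 to 47.4), and 4 in uninjured NFOs (42.5 CPM) against 12 in injured NFOs (34.1 CPM). Uninjured oligodendrocytes held 153 UMIs, or 36.9 CPM (31.3 to 43.2), and injured oligodendrocytes 75 UMIs, or 32.6 CPM (25.6 to 40.8). The ratio was 0.883 (0.661 to 1.17) in oligodendrocytes and 0.803 (0.243 to 3.41) in NFOs, so a higher level after ONC was not seen. Within the uninjured library the order was OPC, NFO and then oligodendrocyte, and no neighbours in it differed beyond counting error (NFO over OPC 0.91, 0.201 to 3.4; oligodendrocyte over NFO 0.868, 0.332 to 3.23).

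The pooled Stat2 level did not hold at every depth. Among oligodendrocyte barcodes under 2000 UMIs, the 302 uninjured ones held 20 Stat2 UMIs (62.6 CPM, 38.2 to 96.7) and the 164 injured ones held 0, with an upper 95% limit of 27.8 CPM. From 2000 to under 8000 UMIs the levels were 40.2 CPM uninjured and 53.4 CPM injured (ratio 1.33, 0.578 to 2.71). At 8000 UMIs or more they were 31.6 and 33 CPM (ratio 1.04, 0.74 to 1.47). The upper bound of the ratio in the shallow barcodes, 0.487, lay below the interval of the deep ones. Injured oligodendrocytes with Malat1 under 0.5% held 0 Stat2 UMIs in 133 barcodes (upper 95% limit 28.8 CPM), and uninjured ones 1 UMI in 48 barcodes (14.3 CPM). After thinning each barcode to 500 UMIs, a Stat2 UMI was left in 2.51% (1.56 to 3.81) of 838 uninjured and 0.341% (0.00864 to 1.89) of 293 injured oligodendrocytes, whereas without thinning the shares were 15.2% and 15.4%. Thinning left out 19 uninjured barcodes. The immune markers stood at 3621 CPM in the shallow injured and 110 CPM in the deep injured barcodes, and the part of immune RNA, depth and Malat1 in the Stat2 difference was not tested.

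Irf7 (ENSMUSG00000025498, chr7:141262706-141266481, minus strand), the transcription factor that amplifies type I interferon production, was found in oligodendrocytes alone. It had 0 UMIs in both libraries' OPCs and NFOs, where 3 UMIs would be 8.53 CPM in injured NFOs, the deepest of these 4 classes. Oligodendrocytes held 5 UMIs in 4 uninjured barcodes (1.21 CPM, 0.391 to 2.81) and 11 in 8 injured barcodes (4.78 CPM, 2.39 to 8.55). Both levels lie under 8.53 CPM, so the 0 counts in OPCs and NFOs do not show that Irf7 is restricted to oligodendrocytes. The ratio was 3.96 (1.27 to 14.6), on 16 UMIs, under the minimum for a call. All 8 injured barcodes with Irf7 were deep, with 17045 to 46653 UMIs each. Irf7 overlaps Phrf1 on the opposite strand.

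Ifit1 (ENSMUSG00000034459, chr19:34640871-34650009, plus strand) and Ifit3 (ENSMUSG00000074896, chr19:34583531-34588731, plus strand) encode neighbouring antiviral RNA-binding proteins. Ifit1 had 2 UMIs in uninjured and 1 in injured OPCs, 0 in NFOs of either library, and 1 in uninjured against 5 in injured oligodendrocytes. The 5 UMIs came from 2 barcodes, of which 1, with 38991 UMIs, held 3. Ifit3 had 1 UMI in the OPCs of each library, 0 in uninjured and 1 in injured NFOs, and 6 in each library's oligodendrocytes (1.45 and 2.61 CPM), a ratio of 1.8 (0.482 to 6.74). Ifit3 has a near-identical copy, Ifit3b, so that its reads may be split or dropped in counting.

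Isg15 (ENSMUSG00000035692, chr4:156199424-156200818, minus strand), a ubiquitin-like modifier, and Usp18 (ENSMUSG00000030107, chr6:121245906-121270917, plus strand), the protease that removes it and limits receptor signalling, were the rarest. Isg15 had 4 uninjured UMIs, 2 in 1 NFO barcode and 2 in oligodendrocytes, and 1 injured UMI in an oligodendrocyte. Usp18 had 2 UMIs in uninjured and 0 in injured oligodendrocytes, and 0 in uninjured and 1 in injured NFOs. Neither was found in OPCs. In injured oligodendrocytes 3 UMIs would be 1.3 CPM, and differences below that level were not detectable at this depth. Usp18 overlaps the noncoding gene Gm44148 on the opposite strand.

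Ifi27 (ENSMUSG00000064215, chr12:103434211-103440239, plus strand), which encodes a small membrane protein of mitochondria and the nuclear envelope, was detected in every class. It had 51 UMIs in uninjured OPCs (298 CPM, 222 to 391) and 24 in injured OPCs (204 CPM, 131 to 304). NFOs held 48 UMIs without injury (510 CPM, 376 to 676) and 106 after ONC (301 CPM, 247 to 364). Oligodendrocytes held 1145 (276 CPM, 260 to 292) and 586 (255 CPM, 234 to 276). Injured levels were the lower ones in all 3 types. The ratio was 0.686 (0.404 to 1.13) in OPCs, 0.591 (0.416 to 0.849) in NFOs, where the interval excluded 1 but the fold was under 2, and 0.922 (0.834 to 1.02) in oligodendrocytes. Within the uninjured library NFOs were above OPCs by 1.71-fold (1.13 to 2.59) and oligodendrocytes were at 0.541 (0.405 to 0.738) of NFOs, while uninjured OPCs and oligodendrocytes did not differ beyond counting error (0.927, 0.7 to 1.25). However, Malat1 was under 0.5% of UMIs in 63.6% of uninjured NFOs, 0% of OPCs and 5.6% of oligodendrocytes. Ifi27 in uninjured NFOs was at 725 CPM (454 to 1097) under that limit and 408 CPM (266 to 597) at or above it. At or above it, uninjured oligodendrocytes were at 274 CPM (258 to 290). The part of Malat1 in these type differences was not tested. In the injured library the ratio of NFOs over OPCs was 1.48 (0.941 to 2.4) and that of oligodendrocytes over NFOs 0.845 (0.686 to 1.05), intervals that span 1.

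Within ranges of depth, the Ifi27 difference in oligodendrocytes was larger in shallow barcodes than in the pooled value. Under 2000 UMIs per barcode the levels were 207 CPM uninjured and 113 CPM injured, a ratio of 0.547 (0.29 to 0.968). From 2000 to under 8000 UMIs they were 236 and 137 CPM (0.578, 0.361 to 0.882), and at 8000 or more 308 and 274 CPM (0.89, 0.796 to 0.995). All 3 intervals excluded 1 and overlapped each other, whereas the pooled interval did not exclude 1. In both libraries the level was highest in the deep barcodes, which gave more of the injured than of the uninjured UMIs. The ranges are wide and did not match the libraries for depth, since deep barcodes averaged 12008 UMIs uninjured and 23823 injured, and those under 2000 averaged 1058 and 810. By Malat1, the ratio was 0.313 (0.158 to 0.598) in oligodendrocytes under 0.5% (399 and 125 CPM) and 0.957 (0.864 to 1.06) at 0.5% or more (274 and 262 CPM), intervals that do not overlap. In NFOs the same ratios were 0.38 (0.216 to 0.682) and 0.773 (0.488 to 1.26), which do overlap. A UMI of Ifi27 was found in 47.8% (44.5 to 51.2) of uninjured and 37.9% (32.3 to 43.7) of injured oligodendrocytes, and in 10.9% and 8.53% after thinning to 500 UMIs. A cell type that should lack these genes was not analysed here, so the share that free RNA gives is not known. The lower Ifi27 level stood beside an immune marker level that was over 10-fold higher, with 902 Ifi27 UMIs per 100 immune marker UMIs in uninjured and 70.9 in injured oligodendrocytes.

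**Figure D2:**
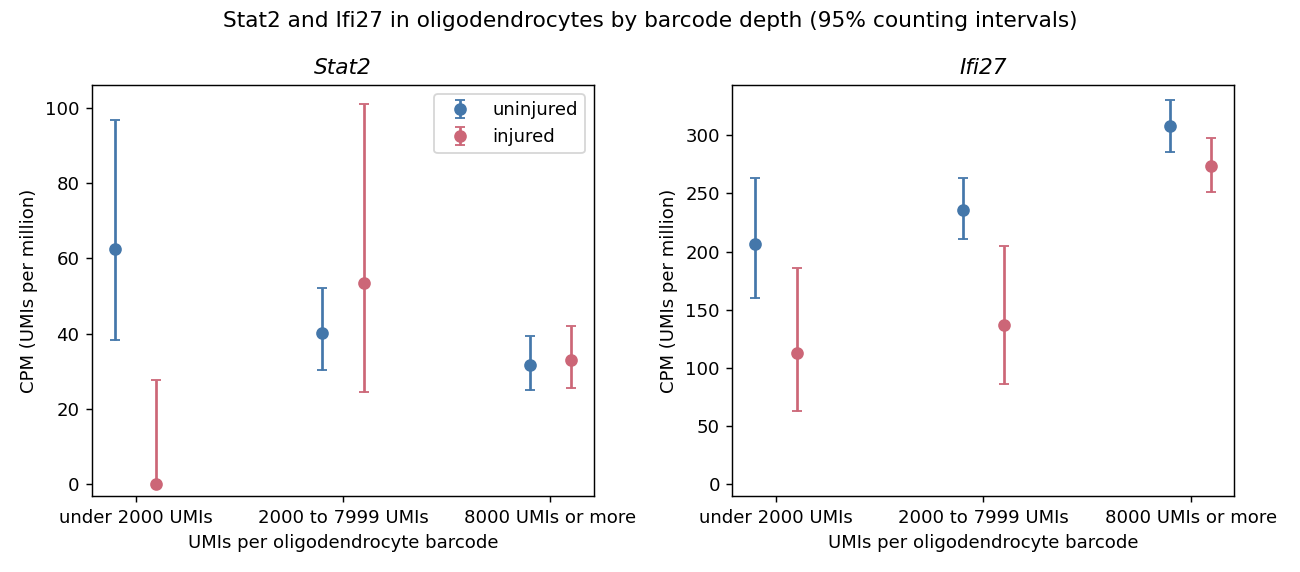
CPM (linear axis) of Stat2 and Ifi27 in oligodendrocyte barcodes of 3 depths, uninjured in blue and injured in red, with exact 95% Poisson intervals. Stat2 was at 0 in the shallow injured barcodes and at 33 against 31.6 CPM in the deep ones, while Ifi27 was lower in the injured library at each depth.

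Bst2 (ENSMUSG00000046718, chr8:71534255-71537456, minus strand), or tetherin, which holds enveloped viruses at the cell surface, was the 1 gene called higher. It had 0 UMIs in the OPCs of either library, 1 in uninjured and 0 in injured NFOs, and 10 in uninjured (2.41 CPM, 1.16 to 4.43) against 19 in injured oligodendrocytes (8.25 CPM, 4.97 to 12.9). The ratio was 3.42 (1.51 to 8.24). However, 10 of the 19 injured UMIs came from 1 barcode of 20093 UMIs, which also held 2 Stat2, 2 Ifit1, 1 Ifit3 and 15 Ifi27 UMIs and 3 of the immune list. Without it the ratio was 1.64 (0.588 to 4.48) and the call was lost. The number of barcodes with Bst2 was 10 in each library, 1.17% (0.561 to 2.14) of uninjured and 3.41% (1.65 to 6.19) of injured oligodendrocytes, and 8 and 9 of them were deep. An immune marker UMI was present in 2 of the 10 uninjured and 9 of the 10 injured barcodes with Bst2. The share of all deep barcodes with such a UMI was not computed, so these counts do not link Bst2 to immune RNA. All deep oligodendrocytes held 69 immune marker UMIs in 203 uninjured barcodes and 221 in 84 injured ones. Bst2 per 100 immune marker UMIs was 7.87 in uninjured and 2.3 in injured oligodendrocytes, and 0 in injured NFOs, which held 301 immune marker UMIs.

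Ifitm3 (ENSMUSG00000025492, chr7:141009586-141010770, minus strand), a membrane protein that hinders virus entry, did not differ beyond counting error between the oligodendrocytes of the libraries. It had 2 UMIs in uninjured OPCs and 0 in injured OPCs, 0 in uninjured and 2 in injured NFOs, and 11 in uninjured (2.65 CPM, 1.32 to 4.74) against 6 in injured oligodendrocytes (2.61 CPM, 0.956 to 5.67). The ratio in oligodendrocytes was 0.983 (0.299 to 2.9), an interval wide enough to hold a 2-fold change either way. Reads may also be shared with its close relative Ifitm2. Ifitm3 is also abundant in vessel cells, and the list of 10 endothelial and fibroblast markers summed to 35.9 CPM in uninjured and 33 CPM in injured oligodendrocytes. That sum mixes genes that went different ways. Of 5 compared, 1 was called higher and 2 lower, beside 7.33% and 4.83% of all genes. The endothelial genes Vwf (20 and 1 UMIs) and Cldn5 (25 and 0) were lower after ONC, and the fibroblast gene Col1a2 (27 and 37) was higher.

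The other genes of the pathway, from lists chosen with earlier results of these data known, were read from ligand to target. Of the 10 interferon ligands in the files, none had a UMI in any class (0 UMIs). The floor of 3 UMIs ranged over the classes from 0.723 CPM in uninjured oligodendrocytes to 31.9 CPM in uninjured NFOs. Of 9 receptors and kinases, 8 were compared in oligodendrocytes, with 2 called higher and 0 lower, beside 7.33% and 4.83% of all genes, and a median log2 ratio of 0.37, beside 0.05 over all genes. Ifngr2, the second chain of the interferon-gamma receptor, had 24 uninjured and 40 injured UMIs, a ratio of 3 (1.77 to 5.21). Jak1, the kinase shared by all interferon receptors, had 171 and 214 UMIs, a ratio of 2.26 (1.84 to 2.77). The chains of the type I receptor, named here after their values were seen, were not called, with ratios of 1.38 (1.04 to 1.83) for Ifnar1 and 0.829 (0.645 to 1.06) for Ifnar2. In NFOs 4 genes of this list were compared, with 0 called either way, beside 7.83% of all genes called higher and 5.03% lower. Ifnar2 had a ratio of 1.25 (0.661 to 2.56) there.

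Of 8 other STAT and IRF factors, 7 were compared in oligodendrocytes, with 2 called higher and 0 lower (7.33% and 4.83% of all genes) and a median log2 ratio of 0.23. Irf9, the DNA-binding partner of Stat2, had 23 uninjured and 43 injured UMIs, a ratio of 3.37 (1.99 to 5.86). Irf1, a factor induced by interferon-gamma, had 21 and 44 UMIs, a ratio of 3.78 (2.2 to 6.69). Of the Irf1 UMIs after ONC, however, 23 came from 1 barcode, without which the ratio was 1.82 (0.948 to 3.51). The uninjured Irf1 UMIs were also uneven, with 12 of the 21 in 1 barcode. A ratio without both barcodes was not computed. Stat3, with the most UMIs of this list, had a ratio of 1.17 (1.02 to 1.35). In NFOs 2 genes of the list were compared and 0 called, beside 7.83% of all genes called higher and 5.03% lower.

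Of 49 other interferon-stimulated genes in the files, 14 reached the minimum in oligodendrocytes, with 4 called higher and 0 lower (7.33% and 4.83% of all genes) and a median log2 ratio of 0.66. Xaf1, a pro-apoptotic protein, had 278 uninjured and 316 injured UMIs, a ratio of 2.05 (1.74 to 2.42). Eif2ak2, the kinase PKR that halts translation on double-stranded RNA, had 8 and 19 UMIs and a ratio of 4.28 (1.79 to 11.3). Herc6, an ISG15 ligase in mice, had a ratio of 2.3 (1.38 to 3.88), and Gbp7, an interferon-inducible GTPase, 4.61 (2.05 to 11.3). The remaining 10 were not called and lay on both sides of 1. Among them, and named after their values were seen, were Ifit2 with 104 and 84 UMIs (1.46, 1.08 to 1.96) and Ifi27l2a, a relative of Ifi27, with 112 and 32 (0.515, 0.336 to 0.769). In NFOs 0 of the 49 reached the minimum. Of the 9 nucleic acid sensors, Mavs alone reached it in oligodendrocytes and was not called (0.767, 0.43 to 1.32).

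Negative regulators showed the largest ratios of the pathway in NFOs. Of 9 genes, 4 were compared in oligodendrocytes, with 2 called higher and 0 lower (7.33% and 4.83% of all genes), and 2 of 2 were called higher in NFOs (7.83% of all genes). Socs3, an inhibitor of Jak kinases that is induced by several cytokines, had 168 uninjured and 463 injured UMIs in oligodendrocytes (4.97, 4.15 to 5.96) and 4 and 68 in NFOs (4.55, 1.7 to 17.2). Ptpn11, the phosphatase SHP2, which also acts in growth factor signalling, had 393 and 437 UMIs in oligodendrocytes (2, 1.74 to 2.3) and 3 and 101 in NFOs (9.01, 3 to 44.4). In NFOs the Socs3 ratio rested on the deep barcodes: it was 1.78 (0.573 to 7.3) in those under 8000 UMIs, and as a mean over barcodes 0.978. In oligodendrocytes the deep and shallow intervals were apart for Socs3, higher in deep barcodes, and for Ptpn11, higher in shallow ones. Those of Irf9, Jak1, Irf1 and Ifngr2 overlapped, so their ratios did not differ with depth beyond counting error. In deep barcodes the ratios of Socs3 (5.88, 4.69 to 7.44), Irf9 (4.75, 2.33 to 10.7) and Jak1 (2.34, 1.84 to 3) excluded 1, while under 8000 UMIs those of Socs3 (1.42, 0.811 to 2.37), Irf9 (1.75, 0.415 to 5.66) and Jak1 (1.34, 0.724 to 2.33) did not. Those of Irf1 were 2.58 (1.41 to 4.9) in deep barcodes and 11.4 (3.04 to 51.6) under 8000 UMIs, those of Ifngr2 2.3 (1.26 to 4.33) and 5.68 (1.52 to 21.3), and those of Ptpn11 1.86 (1.57 to 2.2) and 3.12 (2.39 to 4.05). Gbp7 had 4 uninjured and 0 injured UMIs under 8000 UMIs. As a mean over barcodes, the ratios of Herc6 (1.01), Irf9 (1.07), Jak1 (1.48), Gbp7 (1.7) and Socs3 (1.89) were under 2, and those of Irf1 (7.77), Ifngr2 (6.13), Eif2ak2 (4.41), Ptpn11 (3.09) and Xaf1 (2.03) were above it. Ptpn11 and Xaf1 lay at the threshold and lost their call in oligodendrocytes with Malat1 at 0.5% or more, at 1.85 (1.61 to 2.14) and 1.99 (1.68 to 2.36). The ratio of Xaf1 was 2.07 in deep barcodes and 2.27 in those under 8000 UMIs.

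**Figure D3:**
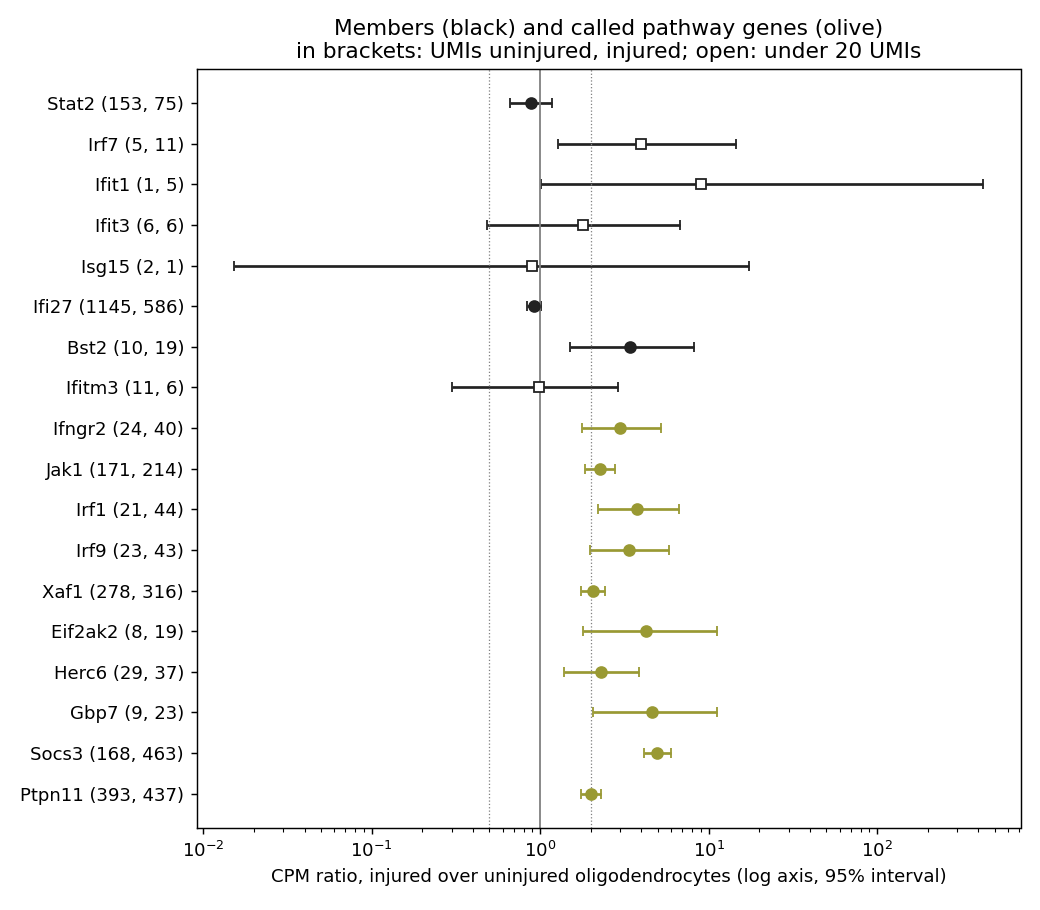
CPM ratio of injured over uninjured oligodendrocytes (log axis) with exact conditional 95% intervals, for 8 of the 9 genes (black; Usp18, with 0 injured UMIs, has no ratio) and for the 10 called pathway genes (olive). Open squares are genes under 20 UMIs and dotted lines mark 0.5 and 2. Stat2 and Ifi27 lie next to 1, at 0.883 and 0.922, while the pathway genes lie at 2 or above, as their call requires.

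In oligodendrocytes the 9 genes, mostly Ifi27, summed to 322 CPM (305 to 339) uninjured and 308 CPM (286 to 331) injured. The other interferon-stimulated genes summed there to 217 CPM (203 to 232) and 316 CPM (293 to 340). Xaf1 alone was at 67 and 137 CPM there. In NFOs both sums were lower in the injured library, at 584 and 347 CPM for the 9 genes and 308 and 233 CPM for the other interferon-stimulated genes. The negative regulators summed to 186 and 430 CPM in oligodendrocytes and to 127 and 529 CPM in NFOs. The injured sums are mostly Socs3 and Ptpn11, with 463 and 437 of 990 UMIs in oligodendrocytes and 68 and 101 of 186 in NFOs. Pias1, of the same list and named after its values were seen, was lower in injured oligodendrocytes but not called (174 and 54 UMIs, 0.559, 0.404 to 0.763). The immune markers were higher by more than any pathway list. In oligodendrocytes 11 of 13 were called higher (7.33% of all genes) and in NFOs 7 of 7 (7.83% of all genes).

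**Figure D4:**
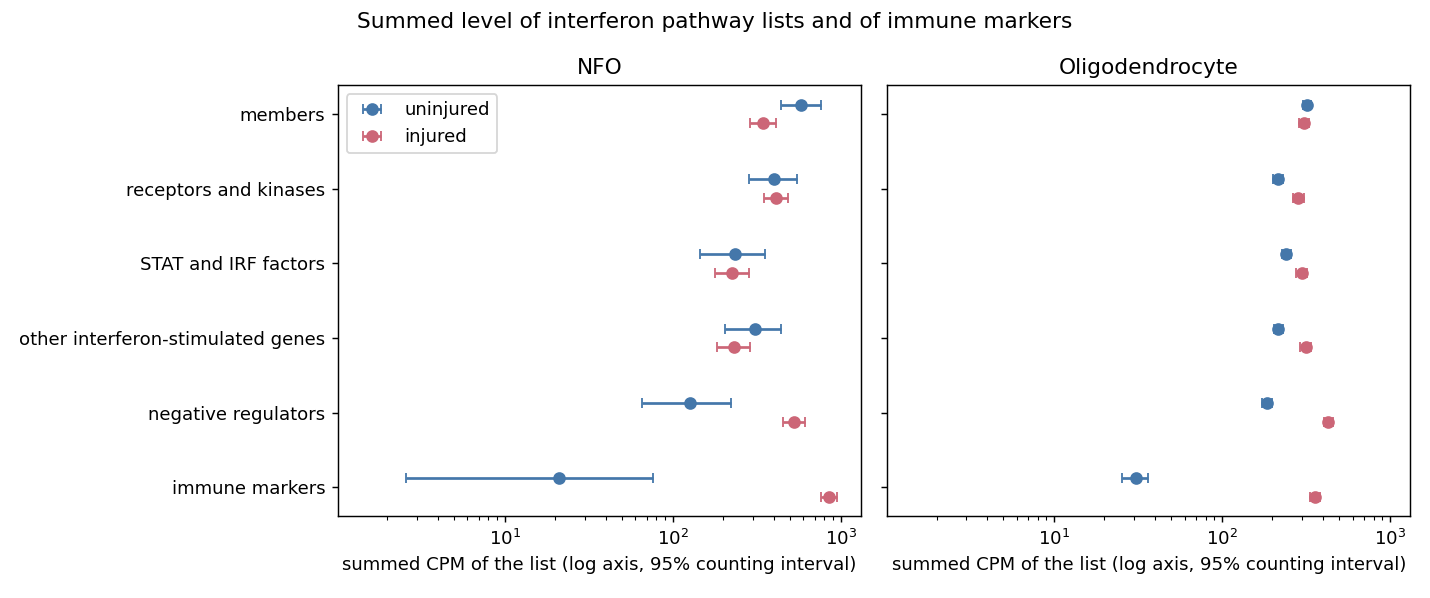
Summed CPM (log axis) of the 9 genes (members), 4 pathway lists and the immune marker list in NFOs and oligodendrocytes, uninjured in blue and injured in red, with exact 95% Poisson intervals. The 9 genes stood at 322 and 308 CPM in oligodendrocytes and the immune markers at 30.6 and 359 CPM.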

How the data were processed

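Cells were captured with the 10x Chromium system from 1 uninjured and 1 injured sample, and counted by the authors with Cell Ranger 1.3 on mm10 (GRCm38), per the labels. The authors deposited natural log values, ln of 1 plus 10000 times UMIs over a barcode's UMIs (Seurat 4.0.3), with a type for each lineage barcode. UMIs were recovered by undoing the log and dividing by each barcode's smallest value, whole within 0.001 in all 1369 barcodes. A table of both libraries repeats these barcodes and was not used. No doublet caller was run. CPM, shares and ratios with exact 95% intervals were computed in Python 3.11.15 with scipy 1.17.1. The ratio intervals were tried on simulated independent Poisson counts of whole classes, which is what they assume. That trial held no barcodes, so it does not cover UMIs that cluster in 1 barcode, as for Bst2 and Irf1. No p-values were computed, since cells of 1 library are not replicates. The 9 genes and all lists were chosen with earlier results of these data known. Named are the 9 genes, the genes called in each pathway list, its gene with most UMIs, and the 5 genes most like the summed 9. Marker lists are given as sums, apart from Vwf, Cldn5 and Col1a2, which were named after their values were seen. A result for 1 gene is not reported here. Coordinates are from GENCODE vM21, which matched 30438 of 31051 names. Alternatives covered scaling, count minimum, depth, Malat1, immune RNA and single barcodes. Those for pathway genes were added after seeing the data.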

Additional observations from a re-analysis of the deposited data

How the results depend on the processing

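No paired analysis was possible because each condition is 1 library, and no replicate could be left out for the same reason. Of 82 alternative values for 10 ratios of the 9 genes, 74 were labelled the same and 8 moved. For a ratio, moved means outside the main interval. The differences of mean natural log values are on another scale, and those labelled moved had the other sign than the main ratio. In 11 of the 82, for ratios that had not been called, the direction turned: 5 for Ifitm3 and 2 for Isg15 in oligodendrocytes and 4 for Stat2 in NFOs. The moves were to lower ratios in oligodendrocytes for Ifi27, at 0.547 in barcodes under 8000 UMIs, 0.7 as a mean over barcodes and 0.735 after thinning to 500 UMIs, and for Stat2, at 0.328 as a mean over barcodes and 0.119 after thinning. They were to the other side of 1 for Ifitm3, at 3.41 under 8000 UMIs, and, as differences of mean natural log values, for Ifitm3 (0.013) and Stat2 in NFOs (0.034). The filter on immune marker UMIs removed so few UMIs that ratios under it show little. Bst2 could not be called with a minimum of 50 UMIs, under 8000 UMIs or after thinning, since its UMIs were below the minimum there. It had 29 UMIs in all, 3 under 8000 UMIs (ratio 2.84) and 4 after thinning (ratio 2.86). Of the 9 genes, 2 were compared in oligodendrocytes in each of these settings, and 0 called higher. The shares of all genes called higher were 5.98%, 5.07% and 5.86% in that order. With no minimum, 3 of 9 were called higher in oligodendrocytes, beside 6.62% of all genes. As a mean over barcodes, with the fold alone as the rule, 1 of 1 was called lower in NFOs (Ifi27), beside 13.8% of all genes. In oligodendrocytes 1 of 3 was called lower under that rule (Stat2), beside 24.9% of all genes. After thinning, 1 of 2 was called lower in oligodendrocytes (Stat2), beside 14.6% of all genes. Of all genes, 316 were higher in NFOs, against 813 as a mean over barcodes, 205 with a minimum of 50 UMIs, 185 under 8000 UMIs and 54 after thinning. The 203 lower genes became 558, 68, 114 and 29 under these settings, 439 with no minimum, and 126 with Malat1 at 0.5% or more. In oligodendrocytes the 742 higher genes became 417 under 8000 UMIs and 265 after thinning, and the 489 lower genes 2523 as a mean over barcodes and 814 under 8000 UMIs. Of 69 added alternatives for the 12 pathway ratios, 53 stayed within the interval, 15 moved, and 1 called ratio turned direction, Socs3 in NFOs as a mean over barcodes (log2 ratio -0.03). The mean over barcodes gives each shallow barcode the weight of a deep one.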

Other observations

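The 5 genes whose levels over the 6 classes were most like the summed level of the 9 genes were Zfp777 (Pearson r = 0.998), Gtf3c6 (0.995), Rhebl1 (0.992), Slc37a4 (0.988) and Fam219b (0.985), by log2(CPM + 10), out of 9153 genes with at least 50 UMIs. The 6 classes come from 2 libraries and the sum is mostly Ifi27, so these values are a description. Zfp777 had 54 UMIs in all and Rhebl1 57, and both were at 0 CPM in injured OPCs. In uninjured NFOs Zfp777 was at 31.9 CPM, the level of 3 UMIs there. The r values of both genes thus rest on few UMIs in the small classes. Like the sum, each of the 5 had its highest level in uninjured NFOs, for example 95.6 CPM of Gtf3c6, a subunit of a factor of RNA polymerase III, against 25.5 CPM in injured OPCs.

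Irgm1, an interferon-inducible GTPase of autophagy, had 2 UMIs in uninjured and 17 in injured oligodendrocytes, a ratio of 15.3 (3.64 to 137) on 19 UMIs, just under the minimum for a call. Cxcl10, a chemokine induced by interferon, went the other way, with 15 UMIs in uninjured and 1 in injured oligodendrocytes. In OPCs, where nothing was called, Irf1 had 2 and 11 UMIs (8.01, 1.75 to 74.4) and Ifngr2 had 3 and 11 (5.34, 1.41 to 29.8). These genes were chosen after their values were seen.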
